A study of Mus musculus with 38 samples.

Results

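The comparison set VIM-3039 cells against MYC-2983 cells, both cultured with doxycycline (Dox), and took 8 of the 38 mouse RNAseq libraries of the series. Its members are the libraries with those sample labels, 4 of each line. Both lines were derived from kidney tumours of mice with a Tet-O-MYC transgene that is switched on by Dox through rtTA, itself driven by the Ksp-cadherin promoter of renal tubule cells. MYC-2983 carries no further engineered lesion (labelled MYC+). VIM-3039 in addition lacks Vhl, whose floxed alleles were removed by a tamoxifen-inducible Cre under the same promoter, and lacks Ink4a/Arf, a germline deletion at Cdkn2a (labelled Vhl-/-, MYC+, Ink-/-/Arf-/-). The 8 libraries share the transgene and the label maintained on Dox, and cells were collected the day after plating. Each genotype is 1 line from 1 tumour, so the tests measure the spread between 4 libraries of a culture, and genotype cannot be told apart from any other difference between the 2 lines. The labels do not say that the libraries came from separate cultures.

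VM-3055 cells (Vhl-/- and MYC+, Ink4a/Arf intact, 4 libraries with Dox), the same 2 lines after Dox was withdrawn (labelled withdrew dox, 8 libraries) and tumours of the VIM (3 mice) and MYC (2 mice, 3 libraries) genotypes served as side values. The MYC-2983 libraries with Dox held 24.8 to 26.9 M estimated reads and 14855 to 14939 genes above 0, and those of VIM-3039 held 15.9 to 19.9 M and 13772 to 14067. A level of 3 reads was therefore worth 1.57 to 1.68 units in MYC-2983 and 1.97 to 2.42 units in VIM-3039, and a group with every library at or under that level is called at the floor. The 4 libraries of a line correlated pairwise at 0.9956 to 0.9965 in VIM-3039 and 0.9969 to 0.9979 in MYC-2983. The sample titles number the libraries of the lines in separate blocks, so line and library set cannot be told apart. All levels below are in the authors' upper-quartile units, in which the upper quartile of each library is 1000, and they are compared within a gene only, since they are not per length.

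The 2 lesions act on separate pathways. VHL is the part of a ubiquitin ligase that recognises the alpha subunits of the hypoxia-inducible factors (HIF) once prolyl hydroxylases have marked them, and without VHL these subunits escape degradation and HIF target genes are transcribed at normal oxygen. Cdkn2a encodes 2 proteins from overlapping reading frames. INK4A restrains the cyclin D kinases that phosphorylate RB, and ARF restrains MDM2, the ligase that degrades p53. MYC itself drives ribosome production, metabolism and the cell cycle, and cells with strong MYC usually switch on ARF.

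The engineered genes followed the labels. Vhl (chromosome 6, 113573953 to 113581627, plus strand, mm9) was at 18, 8.32, 12.5 and 12.1 units in the VIM-3039 libraries and at 461, 455, 456 and 433 in those of MYC-2983. All 4 VIM-3039 libraries lay far below all 4 of MYC-2983, with a log2 difference of -5.09 ± 0.167 (SE). VM-3055, which shares the Vhl deletion, had a mean of 13.1 ± 2.07 (SD, n = 4). Cdkn2a (chromosome 4, 88920377 to 88940557, minus strand, mm9) was at 34.7, 31.2, 24.9 and 29.1 units in VIM-3039 and at 3162, 3056, 3161 and 3306 in MYC-2983, a 106-fold difference of means. In VM-3055, where Ink4a/Arf is intact, the mean was 3804 units. Its neighbour Cdkn2b (chromosome 4, 88952198 to 88956941), which encodes the related inhibitor INK4B, lay the other way, at 544, 515, 494 and 502 units in VIM-3039 and 159.9, 169, 148 and 142 in MYC-2983 (log2 1.73 ± 0.062). Within 500 kb of Cdkn2a 9 of 20 genes were tested. Cdkn2b, Gm12603 and Gm13272 were higher, where 5.66% of all tested genes were. Cdkn2a alone was lower (11.1%). The call of Gm13272 did not hold when a single MYC-2983 library was left out. Within 500 kb of Vhl 23 of 28 were tested, and the 4 that passed were lower, Vhl, Camk1, Creld1 and Prrt3, which is 17.4% and near the share of lower genes among all tested (18.3%).

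Myc (chromosome 15, 61816946 to 61821929) did not pass the fold limit. It was at 432, 359.8, 371 and 361 units in VIM-3039 and at 699, 693, 651 and 661 in MYC-2983, groups that did not overlap, with a log2 difference of -0.83 ± 0.0563. Without Dox both lines were higher, at means of 1479 and 1831 units. How reads from the transgene were assigned is not given in the sources used here, so this entry does not check transgene expression.

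In all, 14685 genes were tested by limma after a log2(value + 1) transform. Genes counted as passed had a log2 difference beyond 1 in either direction at a false discovery rate, after Benjamini and Hochberg, below 0.05. In VIM-3039 831 genes were higher (5.66%) and 2684 lower (18.3%). An adjusted p under 0.05 alone was reached by 76.1% of genes, and in 70.2% the libraries of the lines did not overlap, so neither measure separates a group of genes from the rest here. The median of all tested genes was -0.18. With quantile normalization the split was 1673 higher and 1779 lower and the median 0.05, and with TMM rescaling it was 990 and 2423, so the excess of lower genes depends on the scaling and the counts by gene group below are read against that background. Of the higher genes, 137 of 831 were at the floor in every MYC-2983 library, and of the lower genes 889 of 2684 were at the floor in every VIM-3039 library. Such a gene enters the test through the line that expresses it.

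**Figure D1:**
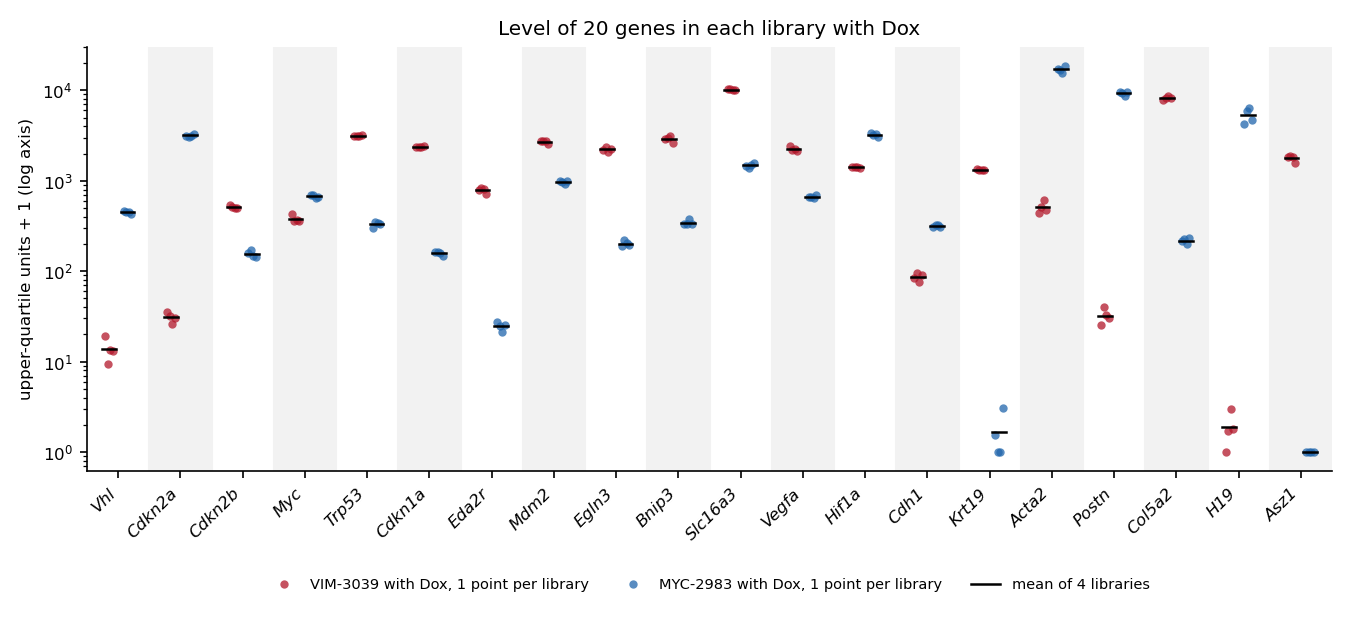
Levels of 20 genes in upper-quartile units plus 1 (log axis), 1 point per library, with VIM-3039 in red, MYC-2983 in blue and the mean of 4 libraries as a bar. For every gene shown the 4 libraries of a line sit close together and apart from the other line, with Trp53 at 3104 to 3209.6 against 299.7 to 347 and Vhl at 8.32 to 18 against 433 to 461.

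Both lines expressed genes of renal epithelium, and the other cell types were checked by their markers. The 10 epithelial markers were all above the floor, with summed levels of 7893 to 8074 units in VIM-3039 and 13510 to 15102 in MYC-2983. Among them was Cdh16, which encodes Ksp-cadherin, the protein whose promoter drives the transgenes, at means of 3696 and 8903 units. Among leukocyte markers 7 of 10 were at the floor in both lines, and among endothelial markers 7 were at the floor in VIM-3039 and 6 in MYC-2983. Fibroblast markers summed to 81.2 to 114 units in VIM-3039 and to 9021 to 9963 in MYC-2983, and 5 of 10 were at the floor in VIM-3039 against Fap alone in MYC-2983. Smooth muscle and pericyte markers summed to 3959 to 4606 units in VIM-3039 and 34947 to 41227 in MYC-2983, with Myh11, Des, Rgs5 and Myocd at the floor in VIM-3039 and Rgs5 alone in MYC-2983. In MYC-2983 Postn made up most of the fibroblast sum, and Acta2 and Tagln most of the smooth muscle and pericyte sum. The sums therefore do not stand for the whole panels. By gene, 8 of 9 tested fibroblast markers and 7 of 9 tested smooth muscle and pericyte markers were lower in VIM-3039, and 0 were higher. Among all tested genes 18.3% were lower. These 2 sums move with the matrix and contractile genes described below, and their part in those results was not tested. In bulk RNA fewer cells of a type and less RNA per cell cannot be told apart.

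Trp53 and many of its targets were higher in VIM-3039. p53 is a transcription factor that MDM2 keeps scarce, and its targets arrest the cycle (Cdkn1a), trigger apoptosis (Bax), or feed back on p53 itself (Mdm2, Ccng1). Of 24 genes listed for p53 and its targets 11 were higher and 1 lower, against 5.66% and 18.3% of all genes, with a median log2 difference of 0.49 (0.63 with TMM, 0.60 with quantile scaling). Trp53, which encodes p53 (chromosome 11, 69393861 to 69405375, plus strand, mm9), was at 3141, 3104, 3112 and 3209.6 units in VIM-3039 and at 299.7, 347, 336 and 331 in MYC-2983. Every VIM-3039 library lay far above every MYC-2983 library, and the log2 difference was 3.26 ± 0.0411 (adjusted p = 1.72e-16, limma). Cdkn1a, which encodes the kinase inhibitor p21, was at 2384, 2389, 2388 and 2395 units against 160.4, 163, 159 and 148 (15.2-fold). Eda2r, a death-receptor family member, was at 780.2, 829, 802 and 719.8 units against 26.3, 23.9, 20 and 24.1, the largest difference of the list at 33.2-fold.

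Trp53inp1, a p53-induced nuclear protein, was higher by 4.14 on the log2 scale, Ccng1 (cyclin G1) and Phlda3 (an inhibitor of AKT) by 3.03 each, and Polk, a translesion polymerase, by 1.71. Mdm2 was at 2726, 2735, 2787 and 2531 units against 993, 979.9, 928 and 995, a log2 difference of 1.47 ± 0.0351. Btg2, the apoptosis gene Bax and the nuclease gene Aen were higher by 1.2, 1.11 and 1.05. Sesn1, a stress-induced regulator of mTORC1, was the lower gene, at a mean of 216 units against 746. The other 12 did not pass, and they include the apoptosis genes Bbc3 (0.17), Pmaip1 (0.44), Perp (0.27) and Fas (-0.87). In VM-3055, compared with the same MYC-2983 libraries, Trp53 had a mean of 197 units, Eda2r 4.77, Ccng1 682, Phlda3 88.2 and Mdm2 1049, and 2 of the 24 genes were higher and 4 lower, where 6.1% and 16.7% of all genes were. Cdkn1a and Trp53inp1 were those higher genes, with means of 549 and 155 units in VM-3055 against 2389 and 1117 in VIM-3039.

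Few of the cell cycle genes that INK4A, ARF and p53 act on passed. Of 21 genes of the RB, E2F and G1 cyclin group Ccne2 was higher (1.06) and E2f2 and E2f5 lower (-1.40 and -1.10), and the median was -0.04 (0.09 with TMM, where E2f5 no longer passed, and 0.07 with quantile scaling). Ccnd1, which encodes cyclin D1, was at 1461 to 1506 units in VIM-3039 and 1392 to 1699 in MYC-2983, and the lines overlapped. Among 31 DNA replication genes only Rfc4 passed (lower by 1.03, but not past the limit with TMM or quantile scaling), and among 28 mitosis genes only Ccna2 (lower by 1.46). Smaller differences leaned lower. At an unadjusted p under 0.05 (limma) 4 replication genes were higher and 24 lower, and 6 mitosis genes were higher and 18 lower. The medians were -0.31 and -0.20 (-0.17 and -0.06 with TMM). Ribosome biogenesis, a process long tied to MYC, had 0 of 20 genes past the limits with limma on logs and with limma voom, while 6 were higher and 10 lower at an unadjusted p under 0.05, and their median was -0.04 (0.10 with TMM and 0.01 with quantile scaling). In the MYC network 2 of 13 passed, the glucose-sensing factor Mlxipl (113 units in MYC-2983, 1.19 in VIM-3039) and Mycn (13.9 and 1.43 units), both lower. That is 15.4%, near the share of lower genes among all tested (18.3%).

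**Figure D2:**
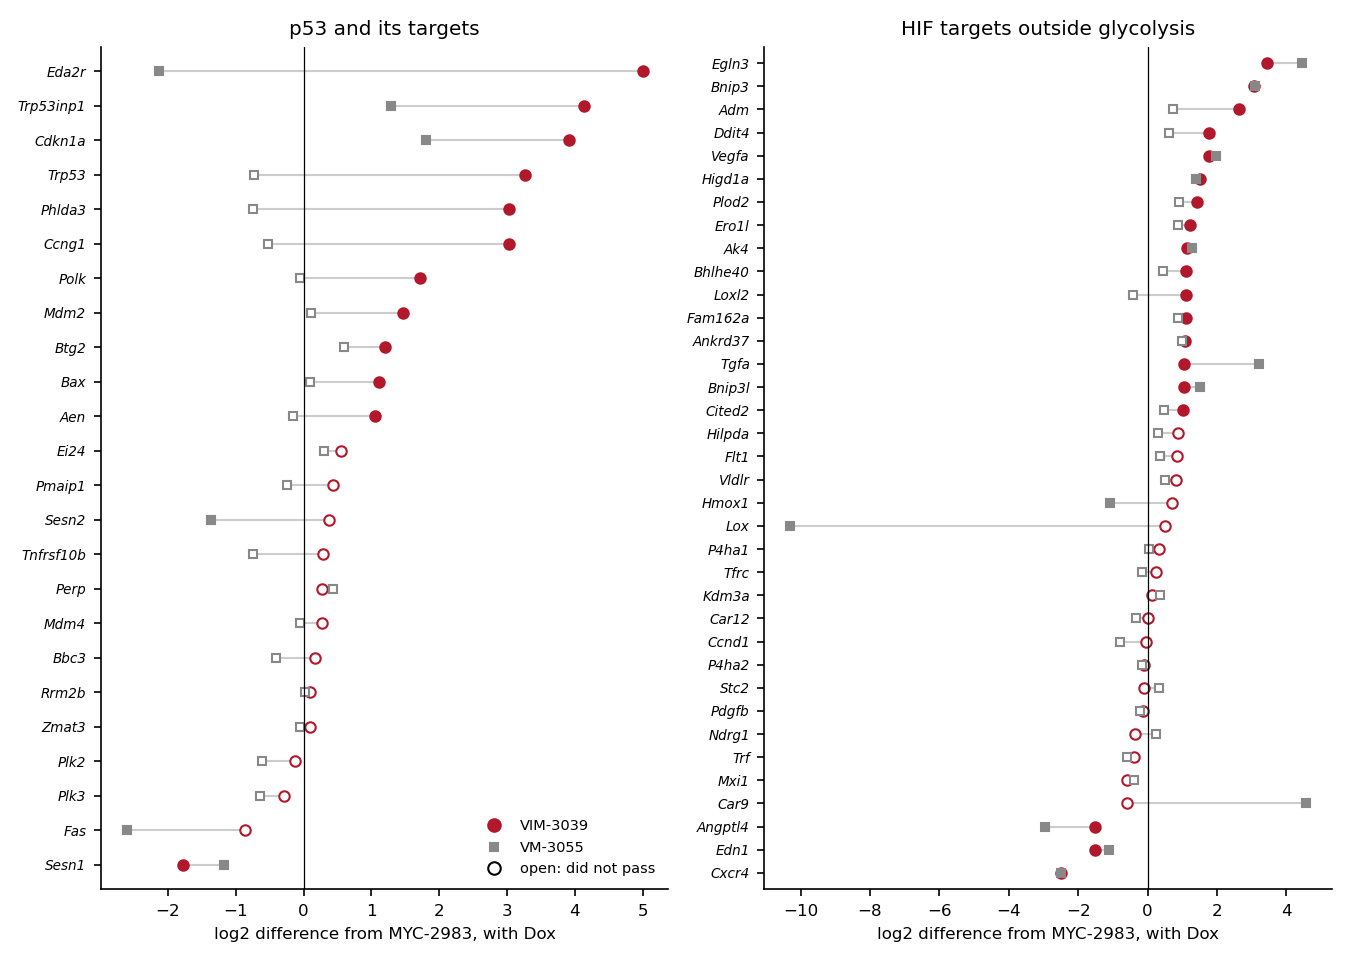
Log2 difference from MYC-2983 with Dox for the 24 p53 genes and the 36 tested HIF targets, with VIM-3039 as circles and VM-3055 as squares, filled where the gene passed; both lines are set against the same 4 MYC-2983 libraries. Trp53 lies at 3.26 in VIM-3039 and -0.73 in VM-3055, whereas Bnip3 lies at 3.07 in VIM-3039 and overlies the VM-3055 square.

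HIF targets were higher in larger number than lower. HIF binds the core sequence ACGTG or GCGTG near genes of oxygen delivery, mitophagy and glycolysis. The promoters of the 3 genes that differed most upward in the HIF and glycolysis lists, picked by that difference, are shown as examples. They span 250 bases before to 50 after the RefSeq start on the GRCm38.p6 build, at chr12:54203825-54204124 (minus strand, Egln3), chr7:138909457-138909756 (minus strand, Bnip3) and chr11:120948817-120949116 (plus strand, Slc16a3), printed 5′ to 3′ on the gene's strand, and capitals mark ACGTG or GCGTG read on either strand.
Egln3: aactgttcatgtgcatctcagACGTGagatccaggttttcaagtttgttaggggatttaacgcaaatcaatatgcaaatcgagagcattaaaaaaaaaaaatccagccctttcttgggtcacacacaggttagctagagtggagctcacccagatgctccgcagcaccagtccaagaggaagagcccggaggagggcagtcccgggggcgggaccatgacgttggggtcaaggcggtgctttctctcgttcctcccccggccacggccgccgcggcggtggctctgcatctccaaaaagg
Bnip3: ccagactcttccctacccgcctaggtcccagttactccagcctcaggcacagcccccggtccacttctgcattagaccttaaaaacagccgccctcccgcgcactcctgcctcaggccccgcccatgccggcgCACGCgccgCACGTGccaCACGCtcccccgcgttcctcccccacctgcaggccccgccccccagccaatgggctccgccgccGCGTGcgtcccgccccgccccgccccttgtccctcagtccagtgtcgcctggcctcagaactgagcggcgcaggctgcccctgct
Slc16a3: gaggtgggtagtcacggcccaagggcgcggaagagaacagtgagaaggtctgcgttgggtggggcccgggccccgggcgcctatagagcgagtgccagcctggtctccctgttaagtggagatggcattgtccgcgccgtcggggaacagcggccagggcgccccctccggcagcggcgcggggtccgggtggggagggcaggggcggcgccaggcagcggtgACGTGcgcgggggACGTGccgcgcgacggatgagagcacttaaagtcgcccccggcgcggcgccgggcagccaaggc
The Egln3 window holds 1 ACGTG, starting at position -229 from the start, that of Slc16a3 holds this core 2 times, and that of Bnip3 holds 2 overlapping copies on opposite strands and 3 of the other core. ACGTG on either strand was present in 26 of the 52 list members with a promoter in the sequence table (50%), in 19.7% of all 27025 promoters and in 25.1% of the 10288 promoters of tested genes. Either core was in 80.8% of the members, in 81.8% of the 22 higher and 83.3% of the 6 lower ones, against 43.8% of all promoters and 61.9% of those of tested genes. A match is a string of letters and not a shown binding site.

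Egln3, the prolyl hydroxylase PHD3 that marks HIF alpha for VHL, was at 2187, 2351, 2086 and 2242 units in VIM-3039 and at 187, 220.2, 206 and 192 in MYC-2983 (log2 3.45 ± 0.052). Bnip3, a receptor for mitophagy, was at 2929.9, 2943, 3087 and 2644 units against 335, 331, 377 and 332 (3.07 ± 0.051). Slc16a3, the lactate exporter MCT4, was at 10261, 10313, 10076 and 10094 units against 1466, 1396, 1478 and 1571 (2.79 ± 0.0324). In each of the 3 genes the lines lay far apart and the libraries of a line within narrow limits.

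Of the 36 tested of 38 HIF targets outside glycolysis 16 were higher (44.4%) and 3 lower (8.33%), with a median of 0.84. Those higher were Adm (the vasodilator adrenomedullin, 2.63), Ddit4 (an mTORC1 inhibitor, 1.78), Vegfa (the angiogenic ligand, 1.77), Higd1a (1.5), Plod2 (collagen lysyl hydroxylase, 1.41), Ero1l (1.22), Ak4 (1.13), Bhlhe40 (1.12), Loxl2 (1.11), Fam162a (1.11), Ankrd37 (1.08), Tgfa (1.06), Bnip3l (1.04) and Cited2 (1.02), beside Egln3 and Bnip3. Vegfa was at 2424, 2209, 2268 and 2141 units against 663, 657, 639 and 689. The lower ones were Angptl4 (-1.52), the endothelin gene Edn1 (-1.53) and the chemokine receptor gene Cxcr4, at the floor in VIM-3039 and at a mean of 4.85 units in MYC-2983. Car9, whose product carbonic anhydrase IX is a widely used marker of VHL loss in renal cancer, did not pass, at 13.9, 3.47, 7.87 and 5.66 units against 8.39, 8.70, 13.5 and 14.2, and the lines overlapped. In VM-3055 Car9 had a mean of 281 units.

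Of the 27 genes of glycolysis and lactate 10 were higher and 5 lower, with a median of 0.77 (12 and 4 with TMM, 10 and 3 with quantile scaling). Slc16a3 led, followed by Pdk4 (2.52) and Pdk1 (1.66), kinases that close the entry of pyruvate into mitochondria, Pgk1 (1.66), Pfkl, Pfkfb3 (1.38), Tpi1 (1.34), Pfkp (1.13), Aldoa (1.12) and Gpi1 (1.07). Lactate dehydrogenase Ldha did not pass, at 57736 to 59032 units against 32210.2 to 34672 (0.81 ± 0.0338), although its libraries did not overlap. The lower genes were the brain forms Aldoc (21 against 449 units) and Eno2 (20.8 against 69.7), the muscle form Pfkm (651 against 1312), the neuronal glucose transporter Slc2a3 (18.6 against 253) and Pdk2 (31.5 against 213). VM-3055 had 7 higher and 4 lower of these 27, and 8 higher and 5 lower of the 37 HIF targets tested for it. Among all genes 6.1% were higher in that line and 16.7% lower. The VM-3055 means for Egln3, Bnip3, Slc16a3 and Vegfa were 4379.7, 2951, 9874 and 2594 units.

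Of the HIF subunit genes Hif1a, Arnt and Hif3a lay the other way. Hif1a was at 1419, 1411, 1413 and 1366 units in VIM-3039 and at 3399, 3201, 3292 and 3063 in MYC-2983 (log2 -1.21 ± 0.0323). Arnt, the beta subunit that both alpha subunits pair with, was at 723, 730.0, 713 and 751 units against 2212, 2188, 2323 and 2218 (-1.61 ± 0.0299), and Hif3a was at the floor in VIM-3039 against a mean of 53.5 units, at least 25-fold lower. Arnt lies on chromosome 3, whose genes had a median of -0.76. Epas1, which encodes HIF2 alpha, was low in both lines, at 9.84 to 21 units against 8.39 to 10.3, overlapped and did not pass, although with quantile scaling it did (1.66). Egln1, the main HIF prolyl hydroxylase, was higher by 1.47, and the VHL partners Tceb1, Tceb2, Cul2 and Rbx1 did not pass, at 0.35, -0.09, -0.14 and -0.44.

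Most cholesterol synthesis genes that passed were higher in VIM-3039. Of 24 tested of 25 genes 10 were higher and 1 lower, with a median of 0.80. The higher enzyme genes included Mvd (1.29), Idi1 (1.89), Fdft1 (1.08), Lss (1.35), Cyp51 (1.27), Sc4mol (1.5), Hsd17b7 (1.71) and Nsdhl (2.10). Idi1 was at 11218, 10369, 9660.1 and 9762 units against 2815, 2820.0, 2761 and 2659.9. Srebf1, the sterol- and insulin-responsive transcription factor, was the lower gene (-1.06), and it did not pass with TMM or quantile scaling. VM-3055 had 6 higher and 1 lower of the list and a mean for Idi1 of 7320.5 units.

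Lipid storage and fatty acid oxidation genes split, with 3 of 27 tested higher (the lipid droplet coat gene Plin2 at 1.21, Lpin1 at 1.52 and the desaturase Scd1 at 1.09) and 7 lower, among them Cpt1a, which admits fatty acids to mitochondria (-2.13), and Plin3 (-2.87). With TMM 5 were higher and 7 lower, and with quantile scaling 5 and 5. The median was -0.08, and 0.06 with both. The shares of 11.1% higher and 25.9% lower stand against 5.66% and 18.3% of all genes. Of 29 tested NRF2 targets, genes of the antioxidant response, 2 were higher and 8 lower (2 and 6 with TMM or quantile scaling). As a whole this list was not lower. Its median was 0.05, and 14 members were higher and 12 lower at an unadjusted p under 0.05 (limma). Malic enzyme Me1 was higher (5003 against 981 units), and the quinone reductase Nqo1 was at 34.7, 22.2, 19 and 14.5 units against 609.9, 518, 521 and 633 (25.2-fold lower), with Cbr3 at 8.36 against 258 units.

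**Figure D3:**
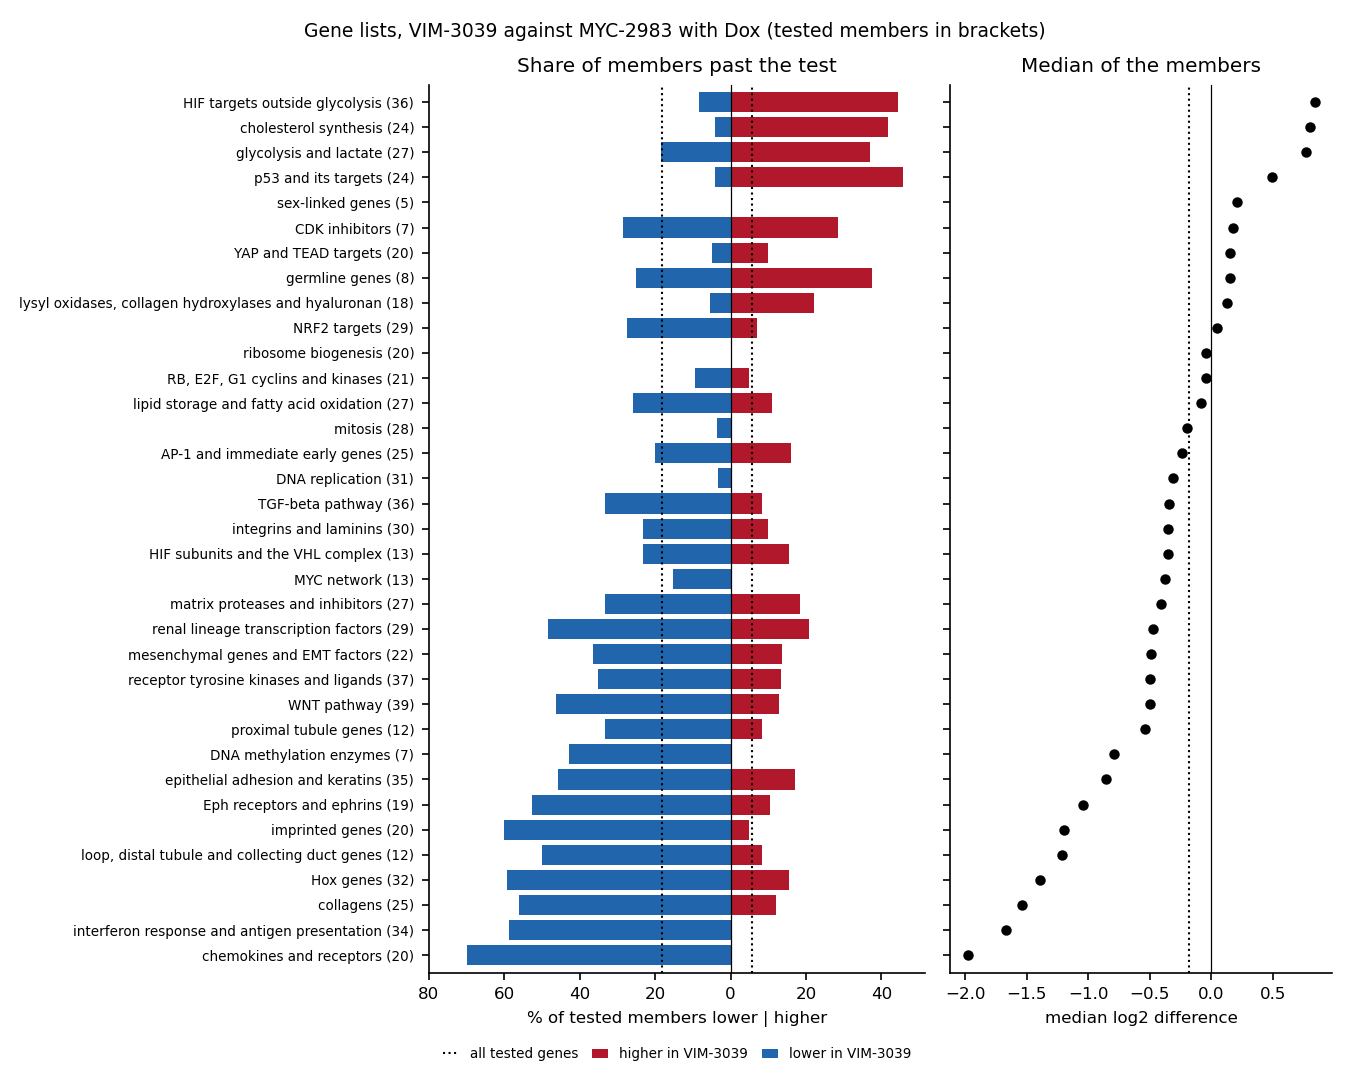
Left, the percentage of tested members of each gene list that were higher (red, right) or lower (blue, left) in VIM-3039 with Dox, with dotted lines at the shares of all tested genes (5.66% and 18.3%); right, the median log2 difference of the tested members, with a dotted line at the median of all genes (-0.18). HIF targets, cholesterol synthesis, glycolysis and p53 have medians from 0.49 to 0.84, and chemokines and the interferon response lie at -1.98 and -1.67.

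Among epithelial junction and keratin genes more were lower than higher in VIM-3039, and 13 did not pass. Of 35 tested of 38 genes 6 were higher and 16 lower (8 and 13 with quantile scaling), with a median of -0.86. Cdh1, the E-cadherin gene, was at 83.3, 95.7, 74.1 and 88.9 units against 309.7, 322, 327 and 309 (log2 -1.88 ± 0.0806). Krt8, a simple-epithelial keratin, was at 37.5, 52, 62.3 and 44.4 units against 291, 304, 291 and 287, and its partner Krt18 was lower by 1.37. Of genes of tight junction proteins, Marveld2 (tricellulin) was at the floor in VIM-3039 and at a mean of 113 units in MYC-2983, Cldn3 at the floor against 81.4, Cldn2 at 27.5 against 227 and Ocln at 14.1 against 74.2.

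Krt19 was the exception of size. This small keratin was at 1347, 1314, 1302 and 1305 units in VIM-3039 and at 0.559, 0, 0 and 2.10 in MYC-2983, where it was a few reads at most, and at a mean of 195 in VM-3055. The desmosome gene Dsp was higher (1902 against 423 units), as were Esrp1, an epithelial splicing factor (71.2 against 14.4), Pkp3 (20.5 against 4.47), St14 (98.7 against 39.3) and Cldn4 (15.2 against 1.89).

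Mesenchymal genes passed in both directions at larger shares than all genes did. Of 22 genes 3 were higher (13.6%, against 5.66% of all genes) and 8 lower (36.4%, against 18.3%), with a median of -0.49. With quantile scaling 4 were higher and 7 lower, and the median was -0.21. Fn1, which encodes fibronectin, was at 59623, 63453, 64892 and 64906 units against 22008, 20942, 18525 and 24726 (1.56 ± 0.0672), and Foxc2 and Twist2 were higher by 1.74 and 1.05. Acta2, smooth muscle actin, was at 441, 510.2, 615 and 473 units against 17135, 16828, 15668 and 18453, a log2 difference of -5.07 ± 0.0788. The actin-binding protein gene Tagln was at 1793 against 17073 units, the matrix protein gene Postn (periostin) at 30.9 against 9292, Cdh11 at 2.35 against 105 and the gelatinase gene Mmp2 at 9.80 against 279.7. In VM-3055 16 of these 22 genes were lower than in MYC-2983 and the other 6 did not pass, with Acta2 at 0.801 units and Tagln at 94.2. Cnn1 and Actg2, further contractile genes, were at 53.7 against 887 and 3.90 against 310.2 units in VIM-3039.

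Of the 12 genes that the study named for EMT and matrix remodelling 3 were higher, 1 was lower (Cdh1) and 8 did not pass. The study named them for VIM-3039 against VM-3055, so these counts against MYC-2983 answer another question. Has2, a hyaluronan synthase, was at 455, 564, 553 and 476 units against 41.4, 32.6, 34.7 and 42.5 (13.5-fold), with a mean of 0.432 in VM-3055. Loxl1, a lysyl oxidase that cross-links elastin, was at 2522, 2543, 2523 and 2619 units against 453, 505, 513 and 427 (5.38-fold), and Loxl2 at 3181, 3603, 3958 and 3498 against 1707, 1569, 1471 and 1843 (2.16-fold). In VM-3055 these 2 had means of 75.8 and 1234 units. A two-sided exact permutation test of 4 against 4 libraries gave 0.0286, the smallest p it can give, for each of the 12 genes, the 8 below the fold limit included. That p arises whenever the libraries of the lines do not overlap, which held for 70.2% of all tested genes. It therefore does not set these 12 genes apart.

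More collagen genes were lower than higher in VIM-3039, and 8 did not pass. Of 25 tested 3 were higher and 14 lower, with a median of -1.54 (3 and 13 with quantile scaling). The shares of all tested genes were 5.66% higher and 18.3% lower. Col5a2, a fibril-initiating chain (chromosome 1, 45431166 to 45560127, mm9), was at 7767, 8310.3, 8656 and 8201 units in VIM-3039 and at 214, 224, 199 and 231 in MYC-2983, a 37.9-fold difference, and at a mean of 1.84 in VM-3055. Col7a1, the chain of anchoring fibrils, and Col8a1 were the others that were higher, at 690.2 against 110.3 and 199.9 against 48 units. The lower ones include Col1a1 (6.44 against 72.4 units), Col3a1 (4.2 against 113), Col6a1 (469 against 1879), Col6a2 (60.8 against 781), Col12a1 (983 against 2371), and the basement membrane chains Col4a3 (9.98 against 119) and Col4a4 (4.17 against 161).

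Among 27 tested matrix proteases and inhibitors 5 were higher and 9 lower, but with quantile scaling the counts were 9 and 8 and the median moved from -0.41 to 0.37. The higher genes included Serpine2 (225 against 20.9 units), the aggrecanase Adamts5 (3339 against 973) and Adamts9. Plat, the plasminogen activator that PAI-1 inhibits, was lower (2899 against 10913 units), and so were Timp2, Timp3 and the gelatinases Mmp2 and Mmp9. Of 30 integrin and laminin genes 3 were higher and 7 lower (6 and 6 with quantile scaling), with Itgb6 at 369 against 144 units, Lamc1 at 1960.0 against 4214, Lama1 at 81.2 against 814, and Lama4 at the floor in VIM-3039 against 68.3.

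Transcription factors of the renal lineage differed in both directions, with 6 of 29 tested higher and 14 lower (9 and 10 with quantile scaling). Higher genes included Pax2 (231 against 91.0 units) and Eya1 and Emx2 of the early nephric program (1.56 and 2.09), Tfap2a (153 against 3.38 units) and Tfap2b. Hnf4a, the master factor of the proximal tubule, was at 0 in all 4 VIM-3039 libraries and at 446, 439.9, 482 and 395 units in MYC-2983, at least 206-fold lower. Irx1 and Irx2 were at the floor against 175 and 299 units. Tfcp2l1, a distal nephron factor, was lower by 2.23.

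Tubule function genes were mostly not expressed. Of 26 proximal tubule genes 12 were tested, with Ass1 higher (64.4 against 18.5 units) and 4 lower, led in level by Havcr1, the injury marker KIM-1 (642 against 3302). With TMM 3 were higher and 4 lower, and with quantile scaling 4 and 4. Of 30 genes of the loop, distal tubule and collecting duct 12 were tested, with Slc12a1 higher at a mean of 10.5 units and 6 lower, among them Stc1 (8 against 69.5) and Wnk4 (88.6 against 364).

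Hox genes record the position of a cell along the body axis and are set early in development. Of 32 tested of 39 5 were higher and 19 lower. Hoxa11 (chromosome 6, 52192107 to 52196213, mm9) was at 299.6, 288, 295 and 301 units in VIM-3039 and at the floor in MYC-2983, at least 182-fold higher. It overlaps Hoxa11as on the opposite strand, and reads of the pair cannot be told apart where strand was not used in counting, which the sources used here do not give. Hoxc11, Hoxc13 and Hoxb13, also from the 5′ ends of their clusters, were higher at means of 79.5, 51.8 and 60.7 units. The lower genes include the 8 from Hoxb2 to Hoxb9, and Hoxc4, Hoxc6, Hoxc8, Hoxc9 and Hoxc10.

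Interferon response genes were lower in VIM-3039. Of 34 tested of 36 genes 20 were lower (58.8%, against 18.3% of all genes) and the median was -1.67. By both limma and limma voom 0 were higher, with 3 higher at an unadjusted p under 0.05, and with quantile scaling 1 was higher and 19 lower. Ifit1 was at a mean of 1.05 units against 147, Isg15 at 1.56 against 79.2, Oasl1 at 4.38 against 145, and the viral RNA sensor gene Ddx58 at 58.7 against 232. In antigen presentation Tap2 was lower (4.77 against 61.7), and Nlrc5, the activator of class I genes, was at 2.86 against 68.7. The chemokine list had 14 lower of 20 tested of 28, with a median of -1.98, and 0 were higher by limma, by limma voom or at an unadjusted p under 0.05, while quantile scaling gave 2 higher and 11 lower. Ccl2, the monocyte attractant, was at 137, 129, 148 and 156 units against 585, 762, 651 and 642. Cxcl10 was at 5.07 against 294 units, Cxcl12 at 1.88 against 124, Ccl20 at 28.7 against 246 and Ccl5 at the floor against 109. VM-3055 had 22 lower interferon genes, and 3 higher and 13 lower chemokine genes.

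In signalling lists the counts varied with scaling, and among all tested genes 5.66% were higher and 18.3% lower. Of 39 tested WNT genes 5 were higher and 18 lower (7 and 12 with quantile scaling). The ligands Wnt7b (559 against 70.7 units) and Wnt4 (256 against 54.8) and the factor Lef1 were higher, and the feedback target Axin2 (2.63 against 48.2), the inhibitor Sfrp2 (1.37 against 222) and Ror2 (8.17 against 123) were lower. Of 36 tested TGF-beta genes 3 were higher, Inhba and Bmp1 among them, and 12 lower (7 and 11 with quantile scaling), the latter with the ligand Tgfb3 (168 against 1867 units), the induced matrix protein gene Tgfbi (239 against 4014) and Bmp4 (4.72 against 133).

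Among 37 tested receptor tyrosine kinase genes the receptor Axl was higher at 9227 against 2968 units while its ligand Gas6 was lower at 21.6 against 318. Fgfr1 was lower (179.6 against 907 units), Kit was at the floor against 34.5, and Ret, Areg and Pdgfa were higher, making 5 higher and 13 lower in all. Of 19 tested Eph genes 2 were higher and 10 lower, and 5 were lower with quantile scaling. In the AP-1 and immediate early group 4 of 25 were higher and 5 lower. Fosl1, the AP-1 subunit FRA1 (500.2 against 60.1 units), and the ERK phosphatase genes Dusp6 (1510.1 against 329) and Dusp4 were higher, and Fos (23.1 against 188), Egr3 and Spry4 were lower. Of 20 YAP and TEAD targets Axl and Tead3 were higher and Wwtr1, which encodes TAZ, was lower.

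Imprinted genes are expressed from the allele of 1 parent. Of 20 tested of 30 12 were lower (8 with quantile scaling) and Grb10 was higher, at 6198, 6511, 6726 and 6769 units against 941, 918, 904 and 869, with a mean of 0.397 in VM-3055. H19, a long noncoding RNA that hosts Mir675 (chromosome 7, 149761434 to 149764048, mm9), was at 4296, 5855, 6334 and 4731 units in MYC-2983 and at 0, 0.693, 1.97 and 0.808 in VIM-3039, at least 2481-fold lower. Cdkn1c, which encodes the inhibitor p57, was at the floor against a mean of 31.7 units, Igf2r was at 950.0 against 2705, and Igf2, next to H19, was at 1.43 against 15. Of 7 tested DNA methylation enzymes Dnmt3a, Dnmt3b and Tet1 were lower (-1.20, -1.35 and -1.07), and Tet1 no longer passed under TMM (-0.94) or quantile scaling (-0.42).

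Germline genes, normally silent outside the gonad, had 8 of 20 members tested, with 3 higher and 2 lower (1 lower with TMM or quantile scaling). Asz1, a gene of the piRNA pathway (chromosome 6, 18000964 to 18059061, mm9), was at 1817, 1875, 1829 and 1575 units in VIM-3039 and at 0 in every library of MYC-2983 and of VM-3055, at least 1090.1-fold higher. It was the largest difference upward of all genes with 50 units or more in the higher line. Tdrd1 of the same pathway lay the other way, at 18.7 against 336 units. Sycp1 was higher at a mean of 15.7 units against 0.

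The 12 largest rises and 12 largest falls by the naming rule were mostly genes of 1 line only. Besides Asz1, Krt19 and Hoxa11 with Hoxa11as, the rises were Eras, an embryonic RAS (1085, 1011, 970.5 and 1061 units against 0 in every MYC-2983 library), Nr1h5, Tex13, Ccnb1ip1, Hmgcll1 and Nrn1, all at the floor in MYC-2983, and Il11 and Sprr1b. Il11, a cytokine of the IL-6 family, was at 751, 862, 997 and 761 units against 2.24, 2.18, 4.33 and 4.19. Eras overlaps Pcsk1n on the other strand. Tex13 and Hmgcll1 were also high in VM-3055, at means of 562 and 263 units, whereas Eras, Asz1 and Hoxa11 were at 0 there.

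The falls, besides H19, Hnf4a and Postn, were Agt, Cd34, Crip1, Ugt3a2, Fkbp10, Bcat2, Camkv, Tbx15 and the complement gene C3. Agt, which encodes angiotensinogen, was at 2592, 2923, 3121 and 2624 units in MYC-2983 and at 2.08, 4.85, 1.31 and 1.62 in VIM-3039. Crip1 and Ugt3a2 were at 0 in every VIM-3039 library and at means of 767 and 653 units in MYC-2983. In VM-3055 the means of Agt, C3 and Tbx15 were 67.7, 265 and 142 units, and those of H19, Cd34 and Crip1 were 0.404, 2.13 and 0.651.

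Among genes at 50 units or more in both lines, where the pseudocount matters little, the largest rises were Ptgs2, Col5a2, Adh7, Trp53inp1, Cdkn1a and Tceal8. Ptgs2, the inducible prostaglandin synthase COX2, was at 2488, 2969.8, 2932 and 2646 units against 79.9, 82.1, 57.4 and 70.2 (38.1-fold). The largest falls were Odz3, Acta2, S100g, Isyna1, Asb5 and Fbln1. Isyna1, which makes inositol phosphate from glucose 6-phosphate, was at 139, 157, 135 and 165 units against 4170.0, 4245, 4607 and 4376 (29.2-fold), and its mean in VM-3055 was 5399.

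The same comparison without Dox used none of these libraries but the same 2 lines. It tested 14875 genes, of which 1024 were higher (6.88%) and 2871 lower (19.3%). Of the 831 genes higher with Dox 616 passed the same way without it (74.1% of 831 and 60.2% of 1024), and of the 2684 lower genes 2045 did (76.2% of 2684 and 71.2% of 2871). In the opposite direction 5 and 11 passed. The p53 list had 10 higher and 3 lower genes without Dox and HIF targets had 16 and 5. Trp53 was at means of 2248 and 166 units, Egln3 at 1629 and 81.1, Bnip3 at 4711 and 326 and Vhl at 17.1 and 533. DNA replication genes, of which Rfc4 alone passed with Dox, had 9 of 31 lower without it, and ribosome biogenesis 3 of 20.

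The line by Dox interaction asked whether the difference between the lines itself depended on Dox, over 16 libraries and 15630 genes. It was past adjusted p 0.05 in 47.6% of genes and past a log2 interaction of 1 as well in 9.06%, 710 positive (4.54%) and 706 negative (4.52%). The interaction of Cdkn1a was 1.03 ± 0.0754, with the difference at 3.92 with and 2.89 without Dox, and that of Eda2r 1.27. Those of Trp53 (-0.50) and Egln3 (-0.87) were past adjusted p 0.05 (5.59e-06 and 7.09e-07, limma) with the larger difference without Dox. Among the largest interactions Hdac9, a class IIa histone deacetylase, turned direction, at 13.9, 12.5, 6.56 and 12.9 units in VIM-3039 against 90.6, 97.9, 110.0 and 89.1 in MYC-2983 with Dox, and at means of 92.4 and 31.3 units without it (interaction -4.58). Nr1h5 and Ccnb1ip1 were at means of 419.8 and 315 units in VIM-3039 with Dox and at 17.2 and 6.88 without, and stayed near 0 in MYC-2983. Snurf, at 175 and 38.1 units with Dox, was at 202 and 1.19 without. Tap1 and Klhdc7a did not pass with Dox and were lower in VIM-3039 without it, at 11.2 against 95.1 and 9.34 against 122 units.

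**Figure D4:**
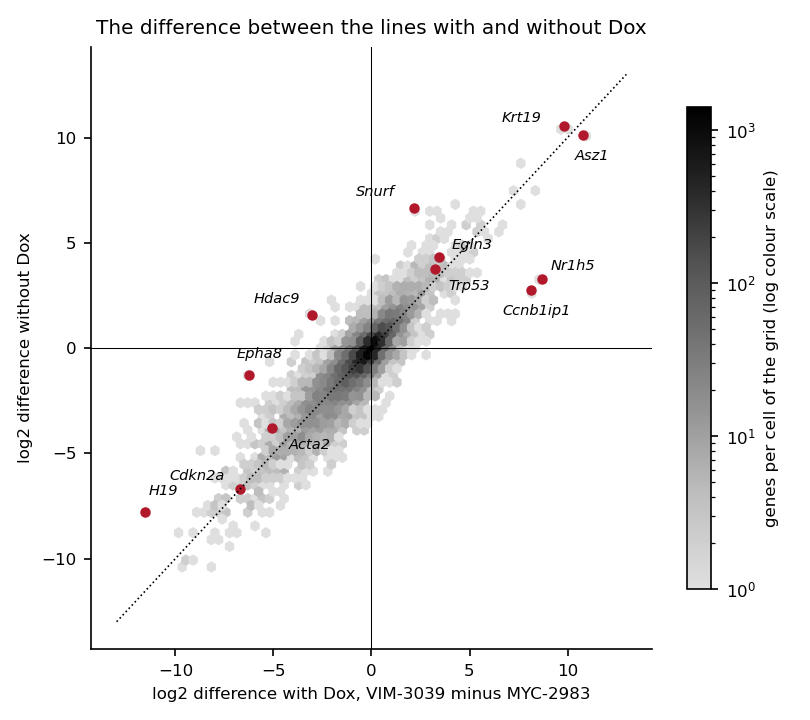
Log2 difference of VIM-3039 minus MYC-2983 with Dox (x axis) against that without Dox (y axis) for genes tested in both, shaded by the number of genes, with 12 genes named and a dotted line where both are equal. Trp53 and Egln3 lie near the line, Nr1h5 and Ccnb1ip1 lie below it (8.70 and 8.14 with Dox, 3.30 and 2.74 without), and Hdac9 lies at -3.02 and 1.56.

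Tumours of the genotypes, 3 VIM and 2 MYC mice, were compared with the same test. Of 16246 genes 1 was higher in VIM (0.00616%), Ftcd, at 2157 to 3640.3 units against 45.2 to 156, and 0 were lower (limma, 2361 genes at an unadjusted p under 0.05). Ftcd had passed the other way in the cells, at means of 1.22 units in VIM-3039 and 3.93 in MYC-2983 (-1.03, lost under several settings). Of the genes that passed in the cells, 0 of the 831 higher and 0 of the 2684 lower passed the same way in tumours by limma. Of the genes higher in VIM-3039 cells 55.7% had the same sign in tumours, against 46.9% of all tested genes, and of the lower genes 62.5%, against 53.1%. The mouse that gave the MYC-2983 line is among the MYC tumours, and without it 53.2% and 61.3% had the same sign, against 46.0% and 54%. That leaves 1 MYC mouse, which is assumed to vary like the VIM mice, and 16 genes then passed, of which 3 were higher in the cells too and 5 had been lower in them. The median log2 difference in tumours was 0.50 for the p53 list, 0.75 for HIF targets, 0.85 for glycolysis and -0.23 for the interferon list, each with the sign it had in the cells. It had the other sign for chemokines (0.20), epithelial adhesion and keratins (0.28), imprinted genes (0.14), proximal tubule genes (1.23) and loop, distal tubule and collecting duct genes (1.49), all of which had negative medians in the cells. Trp53 itself was at 786 to 1487 units in VIM tumours and at 1699 to 2236 in MYC tumours, the reverse order of the cells, while Cdkn1a was at 2254 to 2563 against 305 to 1193 and Egln3 at 2091 to 7956 against 356 to 1204. Asz1, Eras and Hoxa11 did not follow the cells, with Asz1 at 1.84 units or less in the VIM tumours.

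Genes of some chromosomes differed together, most of all those of chromosome 3, while the medians of most chromosomes lay near that of all genes. Among 10700 genes with a position and 50 units or more in the higher line the median log2 difference was -0.12, with 4.33% higher and 11.9% lower. Chromosome 3 had a median of -0.76 over 529 genes, of which 35.9% were lower and 3.02% higher. Each single VIM-3039 library against the MYC-2983 mean gave -0.80 to -0.76 for this chromosome. The values without Dox, with TMM and with quantile scaling were -0.78, -0.63 and -0.61. In consecutive windows of 50 genes the median was -1.21 from 5.22 to 33.7 Mb and -1.30 from 33.9 to 54.9 Mb, and -0.50 to -0.98 in the windows beyond. Chromosomes 11, 15 and 16 had medians of -0.46, -0.40 and -0.38, chromosomes 18 and 8 of -0.26 and -0.24, and chromosome 19 of 0.13. In VM-3055 against the same MYC-2983 libraries the medians were -0.25 for chromosome 3 and -0.53, -0.43 and -0.40 for chromosomes 11, 15 and 16. Chromosome 8 was lowest in that line at -0.57, and chromosome 18 had -0.27. In the tumours chromosome 3 had -0.16 and chromosome 11 -0.01. DNA copy number was not measured here.

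**Figure D5:**
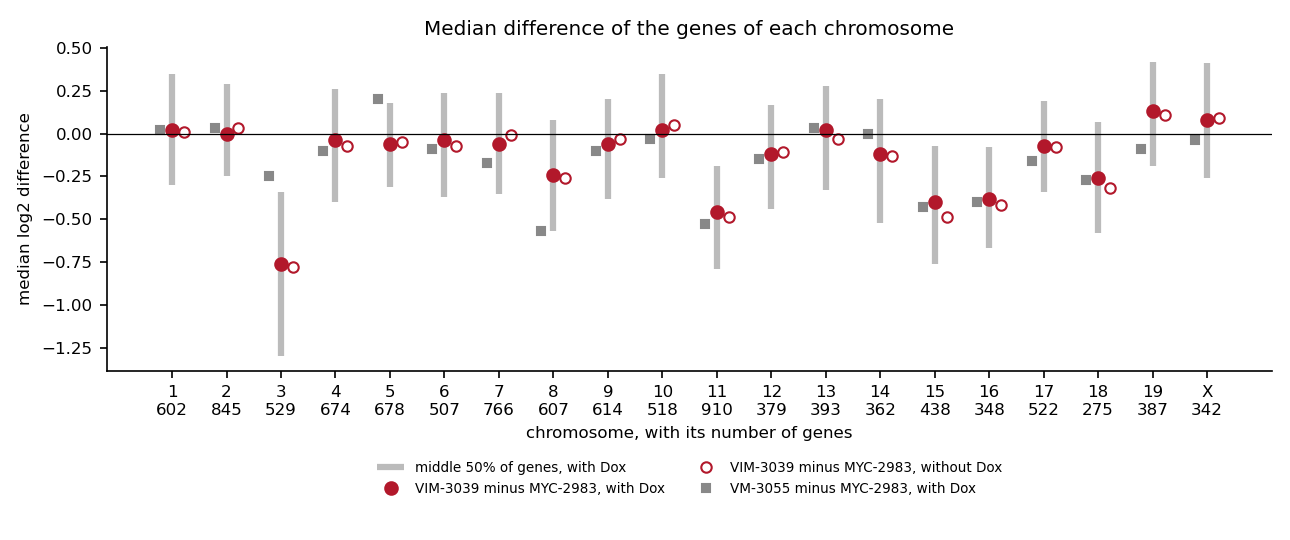
Median log2 difference of the genes of each chromosome, with Dox (filled circles, grey bars for the middle 50% of genes) and without Dox (open circles) for VIM-3039 minus MYC-2983, and for VM-3055 minus MYC-2983 with Dox (squares); all 3 use MYC-2983 and the number of genes stands under each chromosome. Chromosome 3 lies lowest for VIM-3039, at -0.76 with and -0.78 without Dox, and at -0.25 for VM-3055.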

How the data were processed

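RNA of cultured lines, tumours and normal kidney had been sequenced in 38 libraries, of which 8 form the comparison. The authors made stranded mRNA libraries, aligned the reads to mm9 with MapSplice, filtered them (Picard 1.64, SAMtools, UBU), estimated gene counts with RSEM on UCSC genes and scaled each library. The deposited values are therefore a normalised signal whose upper quartile is 1000 (998.1 to 1000 over the genes above 0 of all 38 libraries), and not counts, so no count model was run on them. Whether the strand was used in assigning reads is not given in the sources used here.

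Groups were taken from the labels, and the line numbers of VIM-3039 and VM-3055 from the paper's methods. The most frequent low value of a library was taken as the worth of 1 read, which gave 89.8% to 91.8% of values whole within 0.02 reads, the estimated depth and a floor of 3 reads per library. Intervals of depth cover counting error only. Lower-bound folds use the mean floor of the lower line. Libraries of a group differed by 1.38 to 2.62 (VIM-3039) and 1.66 to 2.71 (MYC-2983) times counting noise, so none was a copy.

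Genes above 0 in at least 4 of the fitted libraries (2 mice for tumours, with 2 libraries of mouse 2983 averaged) entered limma 3.58.1 (R 4.3.3), which took log2(value + 1), moderated the variances with a trend over the groups compared and gave two-sided p-values. Genes passed with a log2 difference beyond 1 in either direction and a p below 0.05 after Benjamini and Hochberg's adjustment. The pseudocount makes the differences of low genes too small. The interaction used the 16 libraries of both lines with and without Dox. Positions come from the NCBIM37 (mm9) annotation, GENCODE release M1, and promoters from RefSeq (GRCm38.p6), with 52 of 65 HIF and glycolysis genes matched. The members and the 42 gene lists were chosen with earlier results of these data known, and 5 list symbols were not matched. Genes named are list members, the 12 largest rises and falls that passed with at least 50 units in the higher line and no overlap, the 6 largest each way at 50 units or more in both lines, and the 5 largest interactions each way. Some list members are not reported here by name. Alternatives were a pseudocount of 0.1 or 10, a filter at a mean of 10 units or none, TMM (30% and 5% trims), quantile normalization, no variance moderation, all 6 cell groups in one fit, each library or mouse left out, and limma voom on estimated reads, chosen after seeing the data. The fits were tested on simulated data. Scripts ran in Python 3.11.15.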

Additional observations from a re-analysis of the deposited data

Results flagged for a closer look

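Of 424 groups of 4 libraries looked at, 20 had 1 library far from the other 3, with its gap past Dixon's 95% critical share of the range of the group, which chance exceeds in about 5% of groups. In VIM-3039 with Dox the level of that library, in units and against those of the other 3, was Adamts9 58.3 against 40.7 to 42.3, Hif1a 1366 against 1411 to 1419, Hoxb13 52.1 against 63 to 64.6, Hoxc8 23.6 against 12.5 to 13.7, Hsd17b7 1446 against 1356 to 1368, Lamc1 2109 against 1899 to 1929, Myc 432 against 359.8 to 371, Nr1h5 546 against 372 to 387, Pax2 200.3 against 239 to 244, S100g 60.6 against 93.2 to 99.8, Srebf1 1009 against 953 to 959, St14 92.3 against 101 and Tdrd1 15.1 against 19.4 to 20.1. In MYC-2983 with Dox the level of that library, in units and against those of the other 3, was Bnip3 377 against 331 to 335, Bnip3l 1389.8 against 1284 to 1299.7, Col6a2 808 against 769 to 774, Esrp1 26.1 against 9.50 to 11.9, Havcr1 2969 against 3367 to 3448, Pfkfb3 679 against 717 to 719 and Tceb2 1225 against 1102 to 1105. Leaving out each library in turn turned the direction between the lines of none of these 20 genes, and Nr1h5 had too few libraries above 0 to be fitted without a VIM-3039 library.

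For 59 genes named in the text the difference between the lines itself differed with Dox, by the limma interaction at an adjusted p under 0.05 and a log2 size above 1. The difference of VIM-3039 minus MYC-2983 was more positive with Dox than without for 26, with log2 interactions in brackets, Ccnb1ip1 (5.41), Nr1h5 (5.4), Tap1 (3.53), Klhdc7a (3.39), Nqo1 (2.69), Ccl20 (2.52), Fosl1 (2.27), Myh11 (2.08), Serpine2 (2.05), C3 (2.02), Trp53inp1 (1.84), Areg (1.83), Sycp1 (1.34), Egr3 (1.34), Lama4 (1.3), Oasl1 (1.28), Eda2r (1.27), Phlda3 (1.10), Tex13 (1.10), Cxcl10 (1.07), Pkp3 (1.06), Slc2a3 (1.06), Btg2 (1.05), Cdkn1a (1.03), Hoxa11 (1.02) and Fbln1 (1.01). It was more negative with Dox for 33, Hdac9 (-4.58), Snurf (-4.47), H19 (-3.79), Camkv (-3.65), Mlxipl (-3.36), Tdrd1 (-2.73), Col4a4 (-2.60), Actg2 (-2.25), Sfrp2 (-2.12), Edn1 (-1.83), Col4a3 (-1.68), Inhba (-1.62), Pdk1 (-1.49), Isg15 (-1.41), Mmp9 (-1.38), Pdgfa (-1.38), Ak4 (-1.36), Pdk2 (-1.33), Acta2 (-1.28), Il11 (-1.27), Mycn (-1.25), Esrp1 (-1.24), Col6a2 (-1.19), Cnn1 (-1.17), Tgfbi (-1.15), Krt8 (-1.14), Hnf4a (-1.11), Asb5 (-1.11), Ccl2 (-1.10), Mmp2 (-1.06), Aldoc (-1.04), Ocln (-1.04) and Pmaip1 (-1.0). Their adjusted p ran from 4.27e-16 to 4.47e-02 over 15630 genes tested, of which 9.06% passed both limits. For Hdac9, Edn1 and Tap1 the direction between the lines was opposite with and without Dox. Among p53 targets Trp53inp1, Eda2r, Phlda3, Btg2 and Cdkn1a had a positive interaction and Pmaip1 a negative one, and among HIF and glycolysis genes Slc2a3 had a positive one and Edn1, Pdk1, Ak4, Pdk2 and Aldoc a negative one.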

How the results depend on the processing

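With Dox, 3515 genes passed between the lines (831 higher and 2684 lower in VIM-3039). The count stayed within 1.5 times of that under TMM (3413), no filter (3549), a pseudocount of 0.1 (3701), no variance moderation (3419), all 6 cell groups in one fit (3546) and limma voom (3681, chosen after seeing the data), and ran from 3148 to 3492 without 1 library (780 to 834 higher, 2314 to 2712 lower). It fell to 2342 (1743 lower) with a mean of at least 10 units and to 2198 (527 higher, 1671 lower) with a pseudocount of 10, both of which weigh against low genes, and the split became 1673 higher and 1779 lower with quantile normalization. Without Dox, quantile normalization gave 1849 higher, a pseudocount of 10 gave 1907 lower, and leaving out 1 library gave 3433 to 3872 (970 to 1038 higher, 2407 to 2884 lower). The interaction (1416, 710 positive and 706 negative) fell to 854 (377 positive) with a mean of at least 10 units and to 674 (334 positive, 340 negative) with a pseudocount of 10, and ran from 1363 to 1446 (668 to 730 and 653 to 733) without 1 library. Tumours gave 1 gene, 7 (all higher) with each library as a replicate, 16 (14 higher, 2 lower) without mouse 2983, which leaves 1 MYC mouse that is assumed to vary like the VIM mice, and 0 to 1 without another mouse, with 0 without mouse 2917, 3233 or 3237.

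The median of chromosome 3 was -0.63 with TMM and -0.61 with quantile normalization. Chromosome 11 had -0.51 with a mean of at least 10 units, -0.32 with TMM, -0.31 with quantile normalization and -0.49 without Dox, chromosome 15 -0.43, -0.26, -0.25 and -0.49, and chromosome 16 -0.24 with TMM, -0.24 with quantile normalization and -0.42 without Dox.

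Of 250 named genes 235 passed and 24 lost their call in at least 1 setting. Without Dox, Edn1 (0.30), Hdac9 (1.56) and Tap1 (-3.05) turned. The cause was not tested. TMM left Creld1 (-0.92), E2f5 (-0.96), Ftcd (-0.94), Hoxc10 (-0.91), Hoxc4 (-0.86), Lamc1 (-0.97), Pfkm (-0.87), Rfc4 (-0.89), Srebf1 (-0.92) and Tet1 (-0.94) under the limit, and quantile normalization also Eno2 (-0.90) and Myh11 (-0.65), while Epas1 (1.66) and Tap1 (1.43) came past it. One library decided the call of Bmp1 (1.0 without MYC-2983 library 2), Cited2 (1.0 without library 4), Fas (past the limit at -1.03 without MYC-2983 library 4 and at -1.26 without VIM-3039 library 3), Ftcd (-0.71 without MYC-2983 library 3), Gm13272 (0.93 without MYC-2983 library 1), Hoxc4 (-0.94 without VIM-3039 library 4), Pfkm (-0.99 without VIM-3039 library 3), Rfc4 (-0.99 without VIM-3039 library 4), Tead3 (0.98 without MYC-2983 library 1) and Tgfa (0.97 without MYC-2983 library 2).

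No paired analysis was possible because the MYC-2983 libraries with Dox carry 0 replicate numbers in their titles. edgeR on counts had been listed and was not run, since the deposited values are scaled estimates. Each line is 1 line, so its deletions cannot be told apart from other differences between the lines, and p-values measure only the spread between libraries of a line.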

Other observations

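Among enzymes that cross-link or modify collagen and make hyaluronan, 4 of 18 were higher in VIM-3039 with Dox and 1 was lower (5.66% and 18.3% of all genes tested), with a median log2 difference of 0.13. With quantile normalization 4 were higher and the lower one no longer passed. The lysyl oxidase genes Loxl1 (2552 against 474 units, log2 2.43) and Loxl2 (3560.1 against 1648, 1.11), the collagen lysyl hydroxylase gene Plod2 (5495 against 2070.4, 1.41) and the hyaluronan synthase gene Has2 (512 against 37.8, 3.73) were higher. Hyal1, which encodes a hyaluronidase, was lower (11.9 against 39.1, -1.69). Lox differed by 0.49 (2071 against 1489) and P4ha1, a subunit of prolyl hydroxylase, by 0.33 (3585 against 2849), and neither passed.

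Of 7 cyclin-dependent kinase inhibitor genes Cdkn1a and Cdkn2b were higher and Cdkn2a and Cdkn1c lower, with a median of 0.18. The other members had differences within the limit, Cdkn2c at -0.92 (245 against 467 units), Cdkn1b at 0.29 (813 against 663) and Cdkn2d at 0.18 (229 against 202).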
